A study of Homo sapiens with 12 samples.

Results

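Exon-junction peaks only in coding sequence are the m1A peaks whose covered bases lie in at least 2 exon blocks and whose annotated transcripts all place them in coding sequence, so that they lie across exon junctions of the annotated mRNA. They were taken from 6 peak lists by the deposited number of blocks (2 or more) and the transcript region pooled over all transcript entries of a peak (coding sequence alone). Of 81260 distinct peaks in the 6 lists, 12837 (15.8%) met both conditions, and another 24022 lay only in coding sequence within a single exon block. Enrichment played no part in the choice. The cells were SNU-668, a human gastric cancer line, made resistant to erastin, a compound that blocks cystine import and causes ferroptosis. They carried either an shRNA against ALKBH3 (ALKBH3 knockdown) or a control shRNA (control, labelled WT for genotype), and both groups share the erastin resistance. Each group has 3 immunoprecipitated (IP) and 3 input libraries, and every IP library has its own peak list, so each list is 1 replicate. Nothing in the labels tells separate cultures from repeat preparations, and the p-values below therefore cover the spread between these lists, which may be technical.

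N1-methyladenosine (m1A) is a methyl mark on the Watson-Crick face of adenine, best known from tRNA and rRNA, and ALKBH3 is an enzyme that removes it from RNA and repairs alkylated DNA. In m1A MeRIP, mRNA is broken into fragments, an antibody pulls down those that carry the mark, and a peak is a stretch with more IP than input signal. Where a stretch runs from the end of an exon into the next, its blocks on the genome are separated by the intron that splicing removed. Its middle blocks are then whole exons of the annotated message. The lists do not say whether single reads crossed the junction or reads lay on either side of it.

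The peaks of an epithelial line were present in part. KRT8 and KRT18, keratins of simple epithelium, had a peak of some kind in all 6 lists, KRT19 in 5 and EPCAM in 3, whereas CDH1, E-cadherin, had none in any list. The leukocyte marker PTPRC and the endothelial marker PECAM1 had none either, while ALB, albumin of liver, and HBB, beta globin of red cells, had a peak in 2 lists each and no junction peak. Their part in the results was not tested. The collagen genes COL1A2 and COL5A1, which encode proteins of the extracellular matrix, had a junction peak in all 6 lists. ALKBH3 itself had no junction peak, and peaks do not give transcript levels, which leaves the knockdown itself unchecked. Without read counts in the lists, the depth behind each value is unknown. List length ran from 8474 to 34691 distinct peaks among the knockdown lists and from 4894 to 15130 among the control lists.

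In 2 of the 3 knockdown lists junction peaks were more numerous than in any control list, but the groups overlapped. The knockdown lists held 7498, 1986 and 957 of them (replicates 1, 2 and 3), and the control lists 296, 366 and 1734. Control replicate 3 thus lay above knockdown replicate 3 and just below knockdown replicate 2. The geometric means differed 4.23-fold (log2 difference 2.08; exact permutation test over lists, two-sided as all tests here, p = 0.2, n = 3 each), and 3 lists against 3 cannot give a p below 0.1. The log2 difference became 1.27 without knockdown replicate 1, 2.75 without knockdown replicate 3 and 2.88 without control replicate 3. It was 0.80 when each list was cut to equal length, its 4894 most enriched peaks (p = 0.1, exact permutation test).

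As a share of all peaks of a list, junction peaks made up 21.6%, 15.2% and 11.3% in knockdown and 5.90%, 7.48% and 11.5% in control. Wilson 95% intervals, which cover counting error only, ran from 10.6% to 11.98% for knockdown replicate 3 and from 10.96% to 11.98% for control replicate 3, so counting error alone spans the gap between these lists. The means were 16.0% ± 5.21 for knockdown and 8.28% ± 2.86 for control (SD, n = 3 each; difference 7.76 percentage points, exact permutation test, p = 0.2). The longest list, knockdown replicate 1, had the highest share and the shortest lists, control replicates 1 and 2, the lowest. Without knockdown replicate 1 the difference was 4.97 points, and at equal list length 5.09 points (exact permutation test, p = 0.1), where every knockdown list lay above every control list.

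Within coding sequence the contrast was smaller. Of the peaks lying only in coding sequence, 38.8%, 33.6% and 28.3% crossed a junction in knockdown and 22.7%, 29.5% and 30.4% in control. The means were 33.6% ± 5.23 for knockdown and 27.6% ± 4.21 for control (SD, n = 3 each; exact permutation test, p = 0.3), a difference of 6.03 points that became 3.42 without knockdown replicate 1 and 3.61 without control replicate 1. The plot of both shares shows where the lists overlap.

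**Figure D1:**
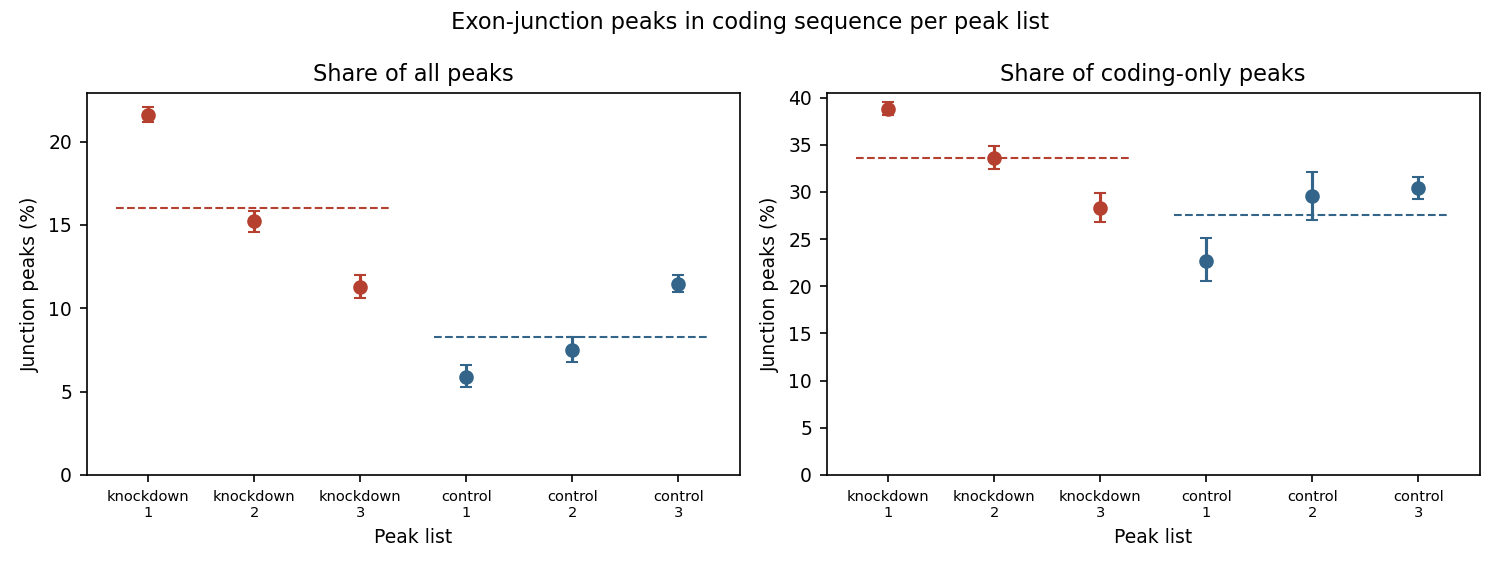
Junction peaks as a percentage of all distinct peaks (left) and of coding-only peaks (right) in each of the 6 lists, knockdown in red and control in blue. Points are lists, bars Wilson 95% intervals for counting error and dashed lines group means. Knockdown replicate 3, at 11.3% and 28.3%, lies below control replicate 3, at 11.5% and 30.4%.

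The genes behind these peaks numbered 3899, 1555 and 809 in knockdown and 277, 318 and 1261 in control. Their geometric means differed 3.53-fold (log2 difference 1.82, exact permutation test, p = 0.2, n = 3 each). That log2 difference was 1.22 without knockdown replicate 1, 2.52 without control replicate 3 and 0.79 at equal list length. Over all lists 5144 of the 10226 genes with any peak (50.3%) had a junction peak, and 3158 of them had it in 1 list. The spread over a gene was mostly narrow, with 2632 genes at a single joined position and 390 at 5 or more.

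Junction peaks were longer than coding peaks within an exon in all 6 lists. Their median exonic length was 175, 125 and 100 nt in knockdown and 80.5, 100 and 125 nt in control, whereas the single-exon coding peaks had a median of 50 nt in each list. The mean difference was 67.6 nt (above 0 in 6 of 6 lists, exact sign-flip permutation test, p = 0.031, the smallest possible). A stretch of RNA that is longer has more room for a junction, so length and number of blocks are not independent measures. Choosing peaks by their blocks thus favours longer ones. The p-values for this length difference and for the share of 25-nt peaks below are therefore no independent support. Peaks of exactly 25 nt, the step in which most lengths were reported, made up 16.0% of junction peaks and 44.1% of single-exon coding peaks (means over 6 lists, exact sign-flip permutation test, p = 0.031). Between the groups the median length of junction peaks averaged 133 ± 38.2 nt in knockdown and 102 ± 22.3 nt in control (SD, n = 3 each; exact permutation test, p = 0.5). The annotated transcripts were of like length, with medians over lists averaging 2886 nt for junction and 2887 nt for single-exon coding peaks (exact sign-flip permutation test over 6 lists, p = 0.969).

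Sorted by length, the share of coding peaks that crossed a junction was nearly the same in every list for the shortest peaks. Among those of 1 to 50 nt it averaged 16.7% ± 1.26 in knockdown and 15.8% ± 1.25 in control (SD, n = 3 each; exact permutation test, p = 0.5). For peaks of 101 to 150 nt it averaged 50.02% ± 5.63 in knockdown and 48.2% ± 5.07 in control. The groups separated in 1 of the 7 length classes, at 151 to 200 nt, where the knockdown lists had 56.4% to 63.3% and the control lists 46.7% to 51.3% (exact permutation test, p = 0.1, the smallest possible and not adjusted for 7 classes). Among peaks over 500 nt the share averaged 58.8% ± 12.9 in knockdown and 39.2% ± 14.5 in control (SD, n = 3 each; exact permutation test, p = 0.2), and the groups overlapped.

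**Figure D2:**
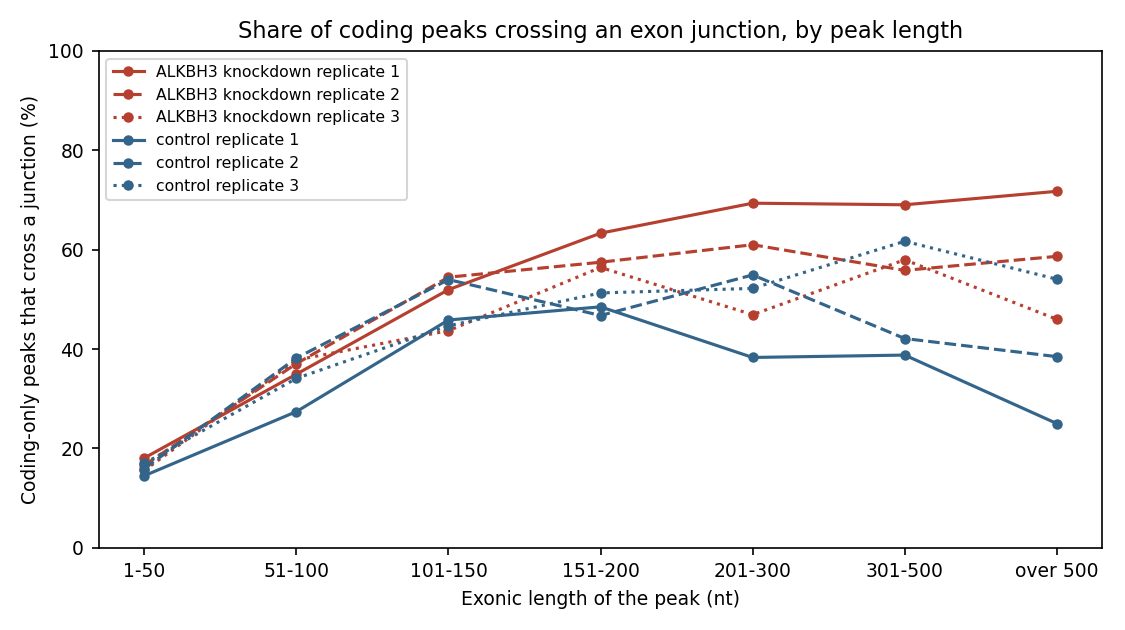
Percentage of coding-only peaks that cross an exon junction (vertical axis) in 7 classes of exonic peak length in nt (horizontal axis), with 1 line per list, knockdown in red and control in blue. All 6 lists lie between 14.5% and 18.1% at 1 to 50 nt and spread most widely above 500 nt, where knockdown averages 58.8% and control 39.2%.

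Most junction peaks crossed 1 junction. Peaks of 2 blocks were 72.9%, 79.9% and 83.7% of junction peaks in knockdown and 89.2%, 86.3% and 82.7% in control. Peaks of 4 or more blocks, which hold at least 2 whole exons, numbered 687, 73 and 27 in knockdown and 7, 9 and 78 in control. The mean number of blocks was 2.305 ± 0.117 in knockdown and 2.199 ± 0.083 in control (SD, n = 3 each; exact permutation test, p = 0.3). In part of the peaks the crossing was slight. The smaller outer block had at most 5 nt in 13.5%, 15.4% and 16.1% of junction peaks of knockdown and in 17.6%, 11.2% and 18.1% of those of control.

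The enrichment of each peak, the authors' own log2 fold change taken as IP over input, differed little between junction peaks and coding peaks within an exon, by at most 0.13 (log2) between their medians in a list. Their median log2 enrichment was 1.91, 2.12 and 1.95 in knockdown and 1.63, 2.06 and 1.82 in control. The means of these medians were 1.99 ± 0.11 in knockdown and 1.84 ± 0.21 in control (SD, n = 3 each; difference 0.16 on the log2 scale, exact permutation test, p = 0.4), and the groups overlapped. Each list was made separately, so a level set across lists also holds differences in how the lists were made. Single-exon coding peaks had medians of 1.98, 2.05 and 1.90 in knockdown and 1.59, 1.93 and 1.86 in control. Within a list, junction peaks minus single-exon coding peaks averaged 0.03 (above 0 in 4 of 6 lists, exact sign-flip permutation test, p = 0.438). Compared within length classes of 50 nt, the sign turned and the mean difference was -0.013 (exact sign-flip permutation test, p = 0.656).

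**Figure D3:**
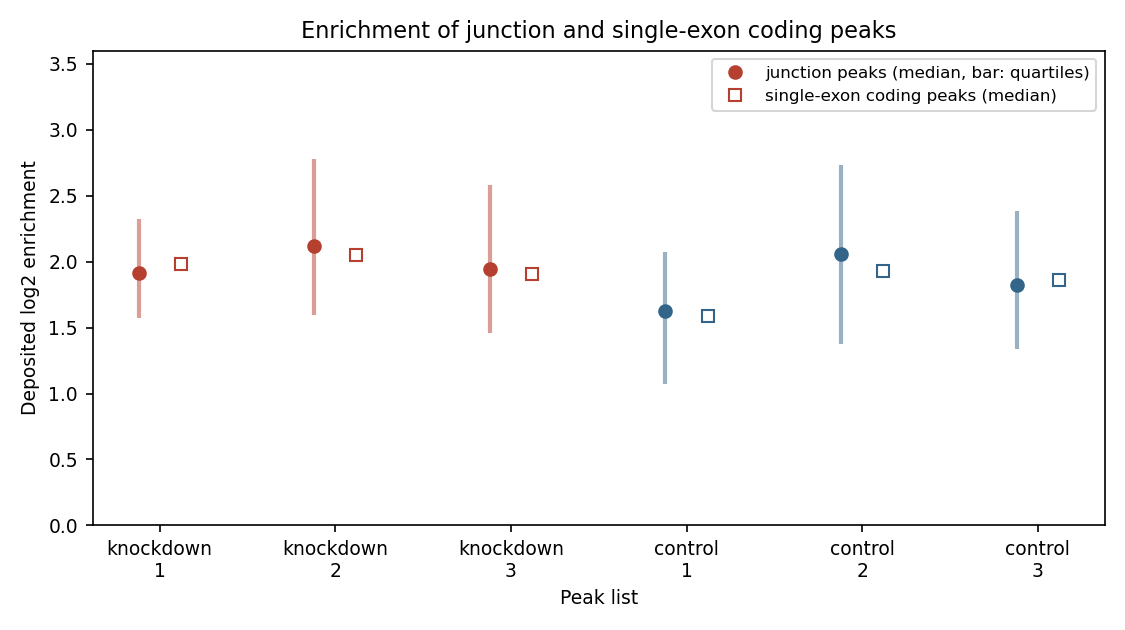
Deposited log2 enrichment of junction peaks (filled circles, medians, with bars from the lower to the upper quartile) and of single-exon coding peaks (open squares, medians) in each of the 6 lists, knockdown in red and control in blue. In each list both medians lie close together, with junction minus single-exon differences from -0.07 to 0.13 on the log2 scale.

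Peaks of 4 or more blocks had a lower median enrichment than peaks of 2 blocks in each list. In the knockdown lists the median log2 enrichment was 1.94, 2.098 and 1.95 for peaks of 2 blocks and 1.74, 1.84 and 1.51 for peaks of 4 or more, and in control 1.64, 2.08 and 1.83 for 2 blocks and 1.19, 1.43 and 1.53 for 4 or more. No test was made, and the number of these longer chains was 7 and 9 in control replicates 1 and 2.

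Most gaps between blocks had the sizes of introns. The median gap was 1188, 1124 and 1160 nt in knockdown and 1038, 962 and 882 nt in control. Over the lists 14865 distinct introns were crossed, of which 12827 were crossed in 1 list, 2038 (13.7%) in at least 2 and 105 in at least 4. Gaps under 50 nt, which are shorter than typical human introns, occurred in 66, 7 and 3 junction peaks of knockdown and in 0, 5 and 10 of control. The longest gap was 503331 nt.

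Where blocks follow the annotated exons, a gene without introns in its coding sequence cannot hold a junction peak. The counts of 0 below were thus fixed in advance and check nothing about the peaks. Of 25 genes with a peak whose coding sequence lies in 1 exon, 18 had a single-exon coding peak and 0 a junction peak. The 13 mitochondrially encoded mRNAs, which come from an intronless genome, had a single-exon coding peak for 9 members and a junction peak for 0.

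Collagen mRNAs, which encode the triple helix proteins of the extracellular matrix, were crossed at many junctions. Of 18 collagen genes with a peak, 14 had a junction peak, and these genes held 287 junction peaks. Of their coding peaks, 68.4%, 54.2% and 56.9% crossed a junction in knockdown and 37.5%, 64.9% and 57.5% in control. For all other genes the shares were 38.6%, 33.3% and 27.7% in knockdown and 22.4%, 28.5% and 29.7% in control, lower in each list. The collagens were grouped by gene name after their values had been seen, so this difference was not tested.

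Whole exons inside collagen peaks often had lengths divisible by 9. Where blocks follow the annotated exons, the lengths given here are those of the annotation and check nothing about the peaks. The triple helix is a repeat of glycine-led triplets of amino acids, each coded by 9 bases. Exon lengths of 54, 45 and 108 bases are among those known from fibrillar collagens. Of 322 distinct whole exons from 13 collagen genes, fibrillar and other, 81 were 54 nt long, 31 were 45 nt and 12 were 108 nt, while 27 were 36 nt, 25 were 63 nt and 14 were 27 nt. A length divisible by 9 was found in 72.0% of them, against 12.4% of the 3773 whole exons of other genes. The collagen exons had a median of 54 nt, and all 4095 whole exons together a median of 107 nt. A second family with repeated exons was NBPF, genes of a primate-expanded tandem repeat. Of 72 whole exons assigned to 7 NBPF names, 31 were 173 nt and 26 were 52 nt long. The NBPF genes are near-identical copies, so which copy a peak belongs to is uncertain.

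**Figure D4:**
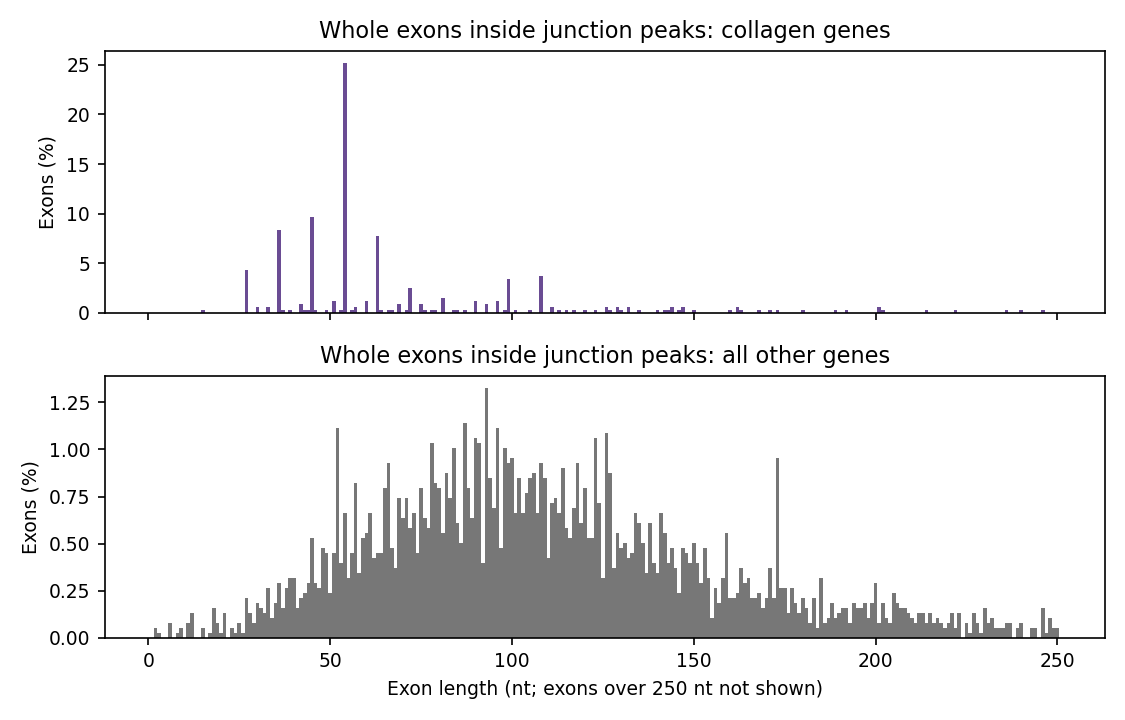
Lengths of distinct whole exons lying inside junction peaks (horizontal axis, nt, up to 250), as a percentage of the exons of 13 collagen genes (upper panel, 322 exons) and of all other genes (lower panel, 3773 exons). Vertical scales differ. Collagen exons stand in separate bars with the tallest at 54 nt, while the other exons spread broadly, with single tall bars that include 52 and 173 nt.

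COL5A1, the alpha 1 chain of type V collagen, held both introns that were crossed in all 6 lists. The shorter of them, 96 nt on chromosome 9 (hg19, 137696911 to 137697006, plus strand), was crossed by peaks with log2 enrichments of 1.85, 1.20 and 1.22 in knockdown and 1.12, 1.15 and 1.47 in control. Its partner of 1130 nt (137715316 to 137716445) had 1.68, 1.04 and 1.07 in knockdown and 0.93, 1.01 and 1.60 in control. At both introns the highest value was in knockdown replicate 1 and the ranges of the groups overlapped. The COL5A1 peak of knockdown replicate 1 at the shorter intron ran over 14 blocks and 850 nt of exon, with whole exons of 54, 45, 108 and 90 nt. In control replicate 3 a COL5A1 peak on chromosome 9 from 137620636 to 137676856 ran over 23 blocks, and its 1375 nt of exon were drawn from 56221 nt of genome. Knockdown replicate 3 likewise had its peak with most blocks, 11, in COL5A1.

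Long chains of short exons were also seen in other collagens. COL7A1, the chain of the anchoring fibrils of skin, had the junction peak with most blocks of any list, 29 blocks and 1325 nt on chromosome 3 (48614196 to 48621163, minus strand) in knockdown replicate 1, with a log2 enrichment of 1.86. The COL7A1 gene had 13, 6 and 8 junction peaks in knockdown and 0, 5 and 12 in control. COL6A3, a chain of type VI collagen, had the peak with most blocks of control replicate 2, 6 blocks over 275 nt, with a log2 enrichment of 0.63. COL1A2, a chain of type I collagen, had 3, 6 and 6 junction peaks in knockdown and 3, 1 and 9 in control.

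Few junction positions were shared between lists. Junction peaks that shared at least 1 exonic base on the same strand were joined to 10629 positions, of which 9086 (85.5%) came from 1 list, against 80.9% of the 57090 positions joined from all peaks and 89.8% of those joined from single-exon coding peaks. A joined position can chain lists that do not overlap directly, and the largest held 16 peaks. Positions held by at least 2 more knockdown than control lists numbered 604, or 5.68% of junction positions, against 5.39% of all joined positions. The reverse was seen for 29 junction positions (0.273%), against 0.958% of all. For single-exon coding positions the shares were 3.48% and 0.465%. At equal list length there were 63 and 21 such positions. Without knockdown replicate 1 the counts were 105 and 49, without knockdown replicate 2 they were 171 and 46, and without control replicate 1, 2 or 3 the 29 became 15, 11 and 3.

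Overlap with any peak of another list was found for 27.0%, 55.6% and 57.9% of the junction peaks of knockdown and for 55.1%, 67.5% and 68.2% of those of control. The lowest value belongs to the longest list, knockdown replicate 1. Single-exon coding peaks had 15.7%, 52.4% and 58.5% in knockdown and 58.4%, 71.4% and 59.7% in control. Of the 5272 junction peaks overlapped by another list, 71.1% met a junction peak there and 40.2% a single-exon coding peak, and a peak can meet both kinds. For 889 of them single-exon coding peaks were the only kind met. By list, knockdown replicate 1 overlapped 46.6% to 63.5% of the junction peaks of each other list, more than any other list did.

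**Figure D5:**
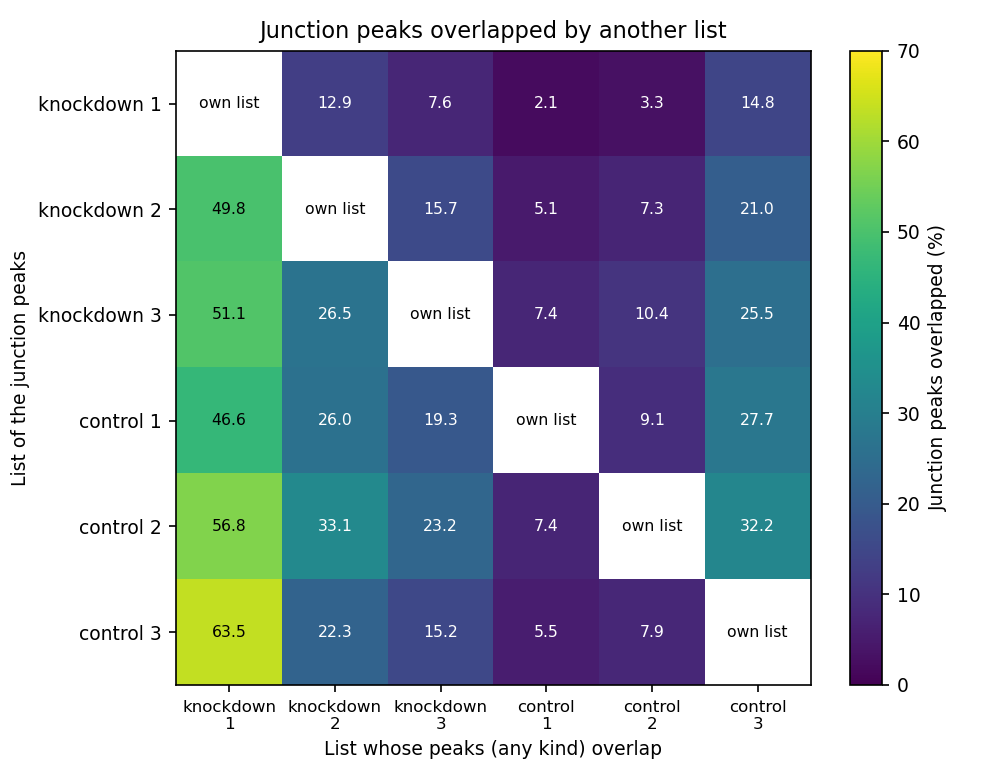
Percentage of the junction peaks of each list (rows) that share at least 1 exonic base with any peak of another list (columns), on a colour scale from 0 to 70%. The column of knockdown replicate 1 holds the highest values, 46.6% to 63.5%, and the row of that list runs from 2.08% to 14.8%.

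Positions with a junction peak in all 6 lists numbered 5 (0.047% of junction positions, against 0.646% of all joined positions and 0.0484% of single-exon coding positions) and lay in IRAK1, COL5A1 (at 2 positions), MYH9 and EEF1G. IRAK1, a kinase of interleukin-1 and Toll-like receptor signalling, had log2 enrichments of 1.96, 2.32 and 1.60 in knockdown and 1.79, 1.85 and 1.58 in control, in the region of chromosome X from 153284426 to 153285070 (minus strand). The ranges overlapped, and in 4 of the lists the peak held the same whole exon of 132 nt. The IRAK1 peaks of control replicates 1 and 2 did not overlap each other and were joined through those of other lists. At both COL5A1 positions, too, not all peaks overlapped directly. MYH9, the heavy chain of non-muscle myosin IIA, had 1.58, 1.48 and 1.05 in knockdown and 0.62, 0.87 and 1.22 in control, on chromosome 22 between 36680139 and 36682083 (minus strand). EEF1G, a subunit of translation elongation factor 1, had 1.05, 0.65 and 0.56 in knockdown and 0.37, 0.70 and 0.56 in control. Its position on chromosome 11 is shared in part with transcripts annotated to TUT1. The EEF1G peak of knockdown replicate 2 did not cross the intron that the peaks of the other lists crossed.

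By gene instead of position, 11 genes had a junction peak in all 6 lists, or 0.214% of those with a junction peak, against 7.55% for any peak. Besides those named and COL1A2, they were COL6A1, EEF2, EPN1, ADAM15, MAP7D1 and POLD2, the last 5 named after their values were seen. EEF2, elongation factor 2, which moves the ribosome along the mRNA, had best log2 enrichments of 1.39, 1.02 and 0.69 in knockdown and 0.70, 0.73 and 1.08 in control. EPN1, an endocytic adaptor, had 2.53, 1.91 and 1.65 in knockdown and 1.76, 1.87 and 2.87 in control. For both, the ranges of the groups overlapped.

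A junction peak in each of the 3 knockdown lists and in none of control was found at 58 positions (0.546% of junction positions, against 0.401% of all joined positions and 0.218% of single-exon coding positions). The reverse held at 0 junction positions, against 0.0701% of all and 0.0339% of single-exon coding positions. Of the 58, 19 had a peak of some other kind in a control list. Ranked by the lowest within-list percentile of enrichment, the leading 8 lay in KRT8, RUFY2, CENPE, SLPI, MINK1, CCDC88A, MBD1 and NFIC, and by this choice they had no junction peak in control.

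KRT8, the type II keratin of simple epithelium, ranked highest, with log2 enrichments of 3.96, 4.06 and 3.85 in knockdown on chromosome 12 between 53292494 and 53294465 (minus strand). The peak of knockdown replicate 3 covered 3 blocks of 190, 291 and 94 nt and was overlapped by a peak of some kind in all 5 other lists, so control lists had peaks of other kinds on the same stretch. The peaks of knockdown replicates 1 and 2 did not overlap each other and were joined through that of replicate 3. KRT8 has many processed pseudogenes, so assignment of its reads is uncertain. RUFY2, an endosomal adaptor, had 4.00, 3.38 and 3.92 on chromosome 10, where all knockdown lists crossed the same intron of 8628 nt. SLPI, a secreted inhibitor of leukocyte proteases, had 2.89, 3.33 and 2.78 on chromosome 20, each peak across an intron of 423 nt, between 43881737 and 43882359 (minus strand). CCDC88A, the actin-binding protein girdin, had 2.40, 2.88 and 2.297 on chromosome 2 across an intron of 3999 nt. In RUFY2, SLPI and CCDC88A the peaks of each list were overlapped by 2 other lists, which are the other knockdown lists.

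In the other 4, as in KRT8, not all peaks of a position overlapped each other directly. At the CENPE and MINK1 positions a control list also had a peak of another kind. CENPE, the kinesin that links chromosomes to spindle microtubules, had log2 enrichments of 2.60, 3.31 and 2.93 in knockdown, and the peak of knockdown replicate 2 ran over 7 blocks and 650 nt. MINK1, a serine/threonine kinase, had 2.86, 2.64 and 2.66 on chromosome 17, and its peaks in knockdown replicates 2 and 3 did not overlap each other. MBD1, a protein that binds methylated DNA, had 2.79, 3.11 and 2.20, and its peaks in knockdown replicates 2 and 3 were 25 nt long and did not overlap each other. NFIC, a transcription factor of the nuclear factor I family, had 2.11, 2.33 and 2.12 on chromosome 19, and its peaks in knockdown replicates 2 and 3 did not overlap either.

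Of the 29 positions with a junction peak in 2 control lists and no knockdown list, 21 had a peak of some other kind in a knockdown list. The leading 8 were in KRT19, LAMA5, CEP63, BCL3, ZFC3H1, SCAF1, EFNA1 and TUBGCP2. KRT19, a type I keratin of simple epithelium that also has pseudogenes, had log2 enrichments of 7.69 and 4.59 in control replicates 2 and 3, on chromosome 17 between 39680444 and 39681144 (minus strand). LAMA5, a laminin chain of basement membranes, had the identical 25-nt peak in control replicates 2 and 3 (chromosome 20, 60886143 to 60888721, minus strand, blocks of 8 and 17 nt), with 3.71 and 5.58. CEP63, a centrosome protein, had 2.46 and 3.18 in control replicates 1 and 3, over 4 blocks and 1875 and 2175 nt. BCL3, a partner of NF-kappaB, had 3.31 and 3.16 in control replicates 1 and 3. EFNA1, the ligand ephrin A1, had 3.44 and 2.69, and TUBGCP2, a subunit of the gamma-tubulin complex, 2.90 and 2.89, in control replicates 2 and 3.

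The most enriched junction peaks of the lists lay in 5 genes. AREGB led knockdown replicate 1 with a log2 enrichment of 7.99 on chromosome 4 (75485924 to 75488085, plus strand, blocks of 83 and 67 nt). AREGB is a hg19 copy of AREG, which encodes the EGF receptor ligand amphiregulin, so the copy of origin is uncertain. ARHGAP28, a GTPase activating protein, led knockdown replicate 2 with 7.70, from a 25-nt peak. HBA2, alpha globin, led knockdown replicate 3 with 10.4 and control replicate 2 with 9.99, on chromosome 16 (ending at 223528, plus strand). The gap in the HBA2 peaks was 8 nt, far below the size of an intron, and HBA1 is a near-identical copy, so neither the junction nor the gene is certain. FAM178A led control replicate 1 with 3.45, and FOLR1, a folate receptor, led control replicate 3 with 7.98, where an outer block had 3 nt.

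Genes with the most junction positions encode very large proteins, and most of their peaks came from knockdown replicate 1. DYNC1H1, the heavy chain of cytoplasmic dynein, had 26 joined positions, from 24, 1 and 0 junction peaks in knockdown and 0, 0 and 3 in control. HSPG2, the basement membrane proteoglycan perlecan, had 21 positions, from 19, 2 and 2 peaks in knockdown and 0, 0 and 7 in control. MYOF, a membrane repair protein, had 20 positions and TRIO, a guanine nucleotide exchange factor, 19. INTS1, a subunit of the Integrator complex, followed with 17, and ITPR3, an inositol trisphosphate receptor of the endoplasmic reticulum, MACF1, a linker of actin and microtubules, and PRKDC, the catalytic subunit of the DNA-dependent protein kinase, with 16 each. ITPR3 had 16, 3 and 3 peaks in knockdown and 0, 0 and 3 in control, and best log2 enrichments of 2.23, 2.22 and 2.22 in knockdown and 2.04 in control replicate 3.

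For gene groups, genes with a junction peak in at least 2 more knockdown lists numbered 842 of 5144 (16.4%), and 33 (0.642%) had the reverse. By any peak the shares were 20.1% and 1.76% of genes. Both counts depended on the lists used. At equal list length they were 170 and 51, and without knockdown replicate 1, 2 or 3 they were 158 and 84, 260 and 50, and 544 and 39. Without control replicate 1, 2 or 3 the 33 became 18, 12 and 3. The gene lists that follow are described by counts to be set against these shares and, for members with a junction peak in some list, against the 50.3% over all genes with a peak, with no test.

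Among proteins of cell adhesion and matrix, 22 of 25 integrins, laminins, collagens and fibronectin with a peak had a junction peak, and 56.8% of their coding peaks crossed a junction, against 34.8% over all genes. This share includes collagens described above, and no value without them was computed. In this list 8 genes had a junction peak in at least 2 more knockdown lists, among them FN1, fibronectin, LAMB3, a laminin chain, and ITGA3, an integrin subunit that binds laminin, and 1 (LAMA5) in at least 2 more control lists. Large cytoskeletal and motor proteins had a junction peak for 25 of 29, and 7 of these had it in at least 2 more knockdown lists. TLN1, talin, which links integrins to actin, had 12, 3 and 1 junction peaks in knockdown and 0, 0 and 1 in control. FLNA, the actin cross-linker filamin A, had 1, 10 and 4 in knockdown and 0, 1 and 9 in control.

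In transport between compartments, of 23 nuclear import and export receptors with a peak, 20 had a junction peak, 6 of them in at least 2 more knockdown lists. KPNA4, an importin alpha, had a junction peak at 1 position in all 3 knockdown lists (log2 enrichments 2.25, 2.26 and 1.71) and none in control, where it had 1, 3 and 4 peaks of other kinds. Coat and adaptor proteins of vesicles had a junction peak for 20 of 25, and 5 had it in at least 2 more knockdown lists. These included SEC31A of the COPII coat, with best values of 1.95, 2.01 and 1.82 in knockdown and 1.28 in control replicate 3.

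Replication factors and cohesin had a junction peak for 23 of 26 members, 7 of them in at least 2 more knockdown lists. PDS5B, a regulator of cohesin, had best log2 enrichments of 4.11, 3.00 and 2.64 in knockdown. These came from 4 positions, and no position was held by more than 2 lists. PDS5B had no junction peak in control, although it had peaks of other kinds in control replicates 2 and 3. MCM2, a subunit of the replicative helicase, had 7, 1 and 1 junction peaks in knockdown and 0, 0 and 2 in control. Each of these groups rests largely on knockdown replicate 1, which held a junction peak for all 23 of these replication and cohesin genes and for all 20 of the transport receptors.

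In the translation apparatus, ribosomal protein mRNAs had few junction peaks. All 78 cytosolic ribosomal protein mRNAs had a peak in some list, but 21 had a junction peak and 15.2% of their coding peaks crossed a junction. The median log2 enrichment of those 30 junction peaks was 0.68, against 1.93 over all junction peaks. The number of members with a junction peak was 4, 6 and 2 in knockdown and 4, 6 and 8 in control. RPL9, a protein of the large subunit, had log2 enrichments of 1.82, 1.68 and 1.79 in knockdown and 1.20 in control replicate 3. It was the only member with a junction peak in at least 2 more knockdown lists. RPL21, RPS4X and RPS10 had a junction peak in at least 2 more control lists, and for RPL21 the lists held different positions. Ribosomal protein genes have many processed pseudogenes, so the assignment of their reads is uncertain. Aminoacyl-tRNA synthetases, which load amino acids onto tRNAs, had a junction peak for 28 of 35, and 3 of these (CARS, RARS and TARS2) had it in at least 2 more knockdown lists.

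The exon junction complex is deposited near junctions by splicing and feeds nonsense-mediated decay. Of 20 genes of these pathways with a peak, 15 had a junction peak, among them UPF3A in at least 2 more control lists. ALYREF, an mRNA export adaptor, had a junction peak at 1 position in 4 lists, with log2 enrichments of 2.54 and 2.49 in knockdown replicates 2 and 3 and 3.17 and 2.86 in control replicates 1 and 3. Among chaperonins and heat shock proteins, 17 of 19 had a junction peak. HSP90AB1, a cytosolic HSP90, had a junction peak in 5 lists at low enrichment, 0.81 and 0.64 in knockdown replicates 2 and 3 and 0.40, 0.57 and 0.27 in control. Of 18 glycolytic genes 14 had a junction peak, among them GPI, the isomerase of glucose phosphate, with best values of 1.46, 1.17 and 0.77 in knockdown and 0.72 in control replicate 3.

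Ferroptosis genes were divided into suppressors and drivers. Of 26 suppressors with a peak, 15 had a junction peak in some list, and 0 had it in at least 2 more lists of either group. SLC7A11, the cystine transporter that erastin blocks, GPX4, the lipid peroxide reductase, and FTH1, the ferritin heavy chain, had no junction peak, although FTH1 had between 2 and 4 peaks of other kinds in each list. AIFM2, a quinone reductase also known as FSP1, had a junction peak in knockdown replicate 3 alone, with a log2 enrichment of 2.63, and NFE2L2, the antioxidant transcription factor, in knockdown replicate 1 alone, with 1.25. GSS, glutathione synthetase, had 2.03 in knockdown replicate 1 and 1.89 in control replicate 3. SLC3A2, the partner chain of SLC7A11, had 3.06 in control replicate 3 and no junction peak elsewhere.

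Of 19 ferroptosis drivers with a peak, 14 had a junction peak. Of all genes with a junction peak, 16.4% had it in at least 2 more knockdown lists. Among the 14 drivers, 3 had it in 2 knockdown lists and no control list. These were ACSL4, which activates polyunsaturated fatty acids for membrane lipids, with 1.27 and 0.95 in knockdown replicates 2 and 3 at different positions, TFRC, the transferrin receptor, with 1.44 and 1.27 in knockdown replicates 1 and 2 at the same position, and VDAC2, a channel of the mitochondrial outer membrane, with 1.23 and 1.22 in knockdown replicates 1 and 3. All 3 had peaks of other kinds in at least 1 control list. In the m1A machinery, 4 of 12 genes with a peak had a junction peak. TRMT61B, a mitochondrial m1A methyltransferase, had it in knockdown replicate 2 (2.88) and control replicate 1 (2.61), YTHDC1, a nuclear reader, in knockdown replicate 1 (1.92) and control replicate 3 (2.07), and TRMT6, a subunit of the tRNA m1A methyltransferase, in knockdown replicate 1 (2.62). For TRMT61B and for YTHDC1 the lists held different positions. RRP8, which places m1A on rRNA, had a junction peak in knockdown replicate 2 (2.46). FTO, YTHDF1, YTHDF2 and YTHDF3 had none in any list.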

How the data were processed

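m1A MeRIP was made from 12 libraries (3 IP and 3 input per group), per the labels' protocols with mRNA fragments of about 300 nt, a stranded kit and 150 nt reads. FastQC 0.11.7, Trimmomatic 0.32, HISAT2 2.1.0 and hg19 are named in the submitters' processing notes, without roles, and the sources used here name no peak caller. Each IP sample has a deposited list of its own, and peaks were thus called per sample rather than on pooled samples. The authors' enrichment is on a log2 scale per the file headers, which do not name its sides, and is taken as IP over input because every value lies above 0. Other deposited columns give block counts, block sizes and transcript length. The labels leave the title prefix RLS3 unexplained.

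Transcript entries were collapsed to distinct peaks, and exonic length is the sum of block sizes. Of 5144 gene names, 4782 matched a current symbol and 289 an older one. Group tests were two-sided exact permutation tests over lists, and within-list differences used exact sign-flip tests (scipy 1.17.1, numpy 2.4.6, pandas 2.3.3), tested on simulated data. The named genes are up to 8 leading positions each held by all lists, by the knockdown lists alone and by the control lists alone (by lowest within-list percentile of enrichment), the most enriched peak and the peak with most blocks of each list, the 8 genes with most positions, up to 4 members of each of 15 gene lists, and 8 set genes that include ALKBH3, GPX4 and SLC7A11. Further members were named as examples after their values were seen. Members, gene lists and rules were chosen with earlier results of these data known. Sequences were not printed, since no hg19 genome was used here.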

Additional observations from a re-analysis of the deposited data

How the results depend on the processing

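The 9 main results with a test were recomputed with peaks of at least 4-fold enrichment, equal list length (4894 peaks), a looser coding rule, peaks with 1 gene name and each list left out, and the between-group ones also with autosomes and X alone. Joined positions had other overlap rules, 4-fold enrichment, equal length and lists left out, the overlap share another overlap rule and equal length, and gene counts equal length and lists left out. The share of 25-nt peaks, transcript length, introns, whole exons, collagens, length classes, gene lists and the most enriched or longest chains had no alternatives. Chosen after the data had been seen were outer blocks of at least 10 nt, no gap under 50 nt, dropping the longest list of each group, and all settings for the 842 and 33 genes. The replicate numbers are only shared: same-numbered lists correlated at 0.058, -0.030 and 0.051 in their deviations over genes, and not every list correlated best with its own number. With the replicate number as a block (exact sign-flip test, smallest p 0.25), the log2 difference in junction peaks stayed 2.08 (p = 0.5), and no other call changed. Between-group results kept their direction, and 3 lists against 3 could not reach the threshold under any of them.

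The difference in median enrichment from single-exon coding peaks turned to -0.013 within length classes (exact sign-flip test, p = 0.656), and the cause was not tested. The length difference of 67.6 nt was 56.1 to 75 nt with a list left out and 51.4 nt without the longest lists, where 5 and 4 lists cannot reach the threshold. The 604 positions with more knockdown lists became 1160 when any peak counted, 202 at 4-fold enrichment, 63 at equal list length and 149 without the longest lists, and 105 to 758 with a list left out. The 29 with more control lists became 11 at 4-fold enrichment, 4 without the longest lists and 3 to 49 with a list left out. The 842 genes with more knockdown lists became 170 at equal list length and 158 to 1121 with a list left out, and the 33 with more control lists 51 and 3 to 84. Overlap with another list averaged 55.2%, and 16.3% at equal list length. No named position reversed, but some differences in number of lists were lost. When any peak counted, KRT8 had 0 more knockdown lists in place of 3, and KRT19, BCL3 and SCAF1 had 0 more control lists in place of 2. CENPE and MINK1 then had 2 more knockdown lists in place of 3, and CEP63 had 1 more control list in place of 2. At equal list length IRAK1, MYH9 and both COL5A1 positions, level in all 6 lists, had 2 more control lists. CENPE, CCDC88A and MBD1 then had 2 more knockdown lists in place of 3, and NFIC had 1. Unknown depth limits every comparison of list lengths.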
